A study of Mus musculus with 13 samples.

Results

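The genes described here are 6 transcripts that glucocorticoids or metals are known to induce: Fkbp5, Tsc22d3, Sgk1 and Dusp1, and the metallothioneins Mt1 and Mt2. They were taken by name from the platform annotation with earlier results of these data known, and all probe sets assigned to them were used. Each gene had 1 probe set assigned to no other gene, so the members were 6 of the 8251 genes on the array, and all 6 passed the intensity filter. The study profiled total RNA of aortae from C57BL/6 mice, an inbred laboratory strain, with no genotype or drug compared between groups. All mice had lived for 2 weeks in a lighting cycle of 12 h light and 12 h dark, followed by constant darkness that lasted 36 h before the first collection. Each of 12 time points, spaced 4 h apart between circadian time 18 (CT18) and CT62, was 1 pool of 6 aortae on a one-colour oligonucleotide array, and CT18 had a second array. The sources used here give neither the age nor the sex of the mice.

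Glucocorticoid hormones are released from the adrenal cortex in a daily rhythm that in nocturnal rodents crests around the onset of activity. They bind the glucocorticoid receptor, a transcription factor that enters the nucleus and activates genes such as Fkbp5, Tsc22d3, Sgk1 and Dusp1. Metallothioneins are small cysteine-rich proteins that bind zinc and copper. Their genes respond both to metals, through the factor MTF1 at metal response elements, and to glucocorticoids.

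The series covered 2 cycles, and 2 pools taken 24 h apart represent each of 6 circadian times. CT38 and CT62 both fall at circadian time 14, shortly after the start of subjective night. Values are deposited intensities on a linear scale, which compare pools within a probe set and not one gene with another. Intensities under 36.7 were treated as at the floor of measurement. The 13 arrays had a trimmed mean of 200.2 each, and 7453 of 12422 probe sets passed the filter. The arrays of the CT18 pair correlated at 0.944 over the probe sets kept, within the range of 0.878 to 0.949 for all pairs of arrays. Of 7 smooth muscle markers on the array 6 passed the filter, among them Acta2, the actin of contractile smooth muscle, between 3783 and 6848. The marker Smtn did not pass, and it was at the floor in 11 pools. Markers of other tissues were also present: Ucp1, the uncoupling protein of brown fat, lay between 5898 and 10111. Fewer cells of a type and less RNA per cell cannot be told apart in such pooled tissue. Each time point was 1 pool, so every p-value measures the spread of pools around the fitted model, and the number of arrays limits the precision.

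Sequences around the transcription starts of 4 members are shown because the inducers of these genes act through short promoter motifs. They are RefSeq windows of 300 bases, 250 before and 50 after an annotated transcript start, on mouse build GRCm38.p6, written 5′ to 3′ on the strand of the gene. Mt1 and Mt2 lie next to each other on chromosome 8, and capitals mark the pattern TGCNCNC on either strand, where N is any base. It is a looser form of the metal response element core, so a match need not be a core. The Mt1 gene spans chr8:94178883-94180327 and the Mt2 gene chr8:94172618-94173567, both on the plus strand. The only Mt1 window in the table is placed on a transcript start 206 bases inside the gene's outer end, so the bases just before that outer end are not all in it. The Mt2 and Fkbp5 windows are placed on the outer end.
Mt1, chr8:94178839-94179138, plus strand: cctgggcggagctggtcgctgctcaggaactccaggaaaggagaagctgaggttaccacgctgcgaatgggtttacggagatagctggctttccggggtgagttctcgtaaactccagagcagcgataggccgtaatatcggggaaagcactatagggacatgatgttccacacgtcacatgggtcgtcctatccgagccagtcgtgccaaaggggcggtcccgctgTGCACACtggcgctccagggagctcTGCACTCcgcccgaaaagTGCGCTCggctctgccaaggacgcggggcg
Mt2, chr8:94172368-94172667, plus strand: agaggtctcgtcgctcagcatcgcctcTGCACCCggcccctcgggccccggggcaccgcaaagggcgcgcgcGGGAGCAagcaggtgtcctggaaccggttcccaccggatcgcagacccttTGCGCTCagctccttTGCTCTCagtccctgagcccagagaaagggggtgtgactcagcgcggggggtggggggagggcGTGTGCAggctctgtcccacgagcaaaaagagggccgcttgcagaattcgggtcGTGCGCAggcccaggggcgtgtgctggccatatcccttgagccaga
The Mt1 window held 3 matches and the Mt2 window 6. Other members held this loose pattern too. Matches numbered 3 in 1 window of Sgk1. Another Sgk1 window, 1 window of Tsc22d3 and the windows of Fkbp5 and Dusp1 held 1 match each. Of 32851 RefSeq mouse windows of this length, 51% held at least 1 match, 7.1% held 3 or more and 0.225% held 6 or more.

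Sgk1 has 6 annotated windows, and 1 of them held the full palindromic glucocorticoid response element, AGAACA and TGTTCT with any 3 bases between them, in capitals. The Sgk1 gene spans chr10:21882184-21999903. The window with the palindrome is placed on a transcript start 111706 bases inside the gene's outer end. The window at that outer end held no palindrome.
Sgk1, chr10:21993640-21993939, plus strand: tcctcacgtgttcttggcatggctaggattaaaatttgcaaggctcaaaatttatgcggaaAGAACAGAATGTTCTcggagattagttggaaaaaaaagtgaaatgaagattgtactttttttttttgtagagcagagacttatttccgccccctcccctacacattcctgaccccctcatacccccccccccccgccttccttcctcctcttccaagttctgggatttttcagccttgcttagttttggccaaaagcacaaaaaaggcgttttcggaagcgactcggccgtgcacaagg
This palindrome was found in 3 of the 32851 windows (0.00913%), searched on both strands. The shorter AGAACA, which is contained in the palindrome, was found in 19% of windows. It also occurred in 2 other windows of Sgk1 and 1 of Tsc22d3, and it was not in the windows of Fkbp5, Dusp1, Mt1 or Mt2. The Fkbp5 gene spans chr17:28398753-28486149 on the minus strand, and capitals mark the E-box CACGTG, the core to which clock factors can bind.
Fkbp5, chr17:28486100-28486399, minus strand: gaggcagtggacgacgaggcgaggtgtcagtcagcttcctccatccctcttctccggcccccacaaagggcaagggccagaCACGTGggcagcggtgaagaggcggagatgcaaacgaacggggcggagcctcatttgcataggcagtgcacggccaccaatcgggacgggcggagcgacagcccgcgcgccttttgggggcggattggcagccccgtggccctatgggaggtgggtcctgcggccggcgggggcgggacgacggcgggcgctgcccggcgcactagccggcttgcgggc
The E-box was in 7.15% of windows, among them those of Fkbp5 and Dusp1 and the Sgk1 window above. The Dusp1 gene lies at chr17:26505591-26508472 and Tsc22d3 at chrX:140539528-140600522. A match is a description of these letters and not of binding, and the motifs were chosen after expression had been seen.

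Fkbp5 encodes FKBP51, a co-chaperone of HSP90 that lowers the hormone affinity of the glucocorticoid receptor, so that its induction feeds back on the receptor. Its highest intensities were both at circadian time 14, on either day. On the first day it measured 106 (the mean of 139 and 73.4) at CT18, 242 at CT22, 205 at CT26, 0.433 at CT30, 290 at CT34 and 1071 at CT38. On the second day it measured 372 at CT42, 148 at CT46, 57.96 at CT50, 163 at CT54, 159 at CT58 and 667 at CT62. The CT30 pool was below the floor, and CT38 and CT62 stood above all 10 other pools. The lower of this pair, 667, was 1.79 times the highest of the others, 372, while the median of the other 10 was 161. CT38 exceeded the CT30 pool at least 29.2-fold, with CT30 set at the floor.

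**Figure D1:**
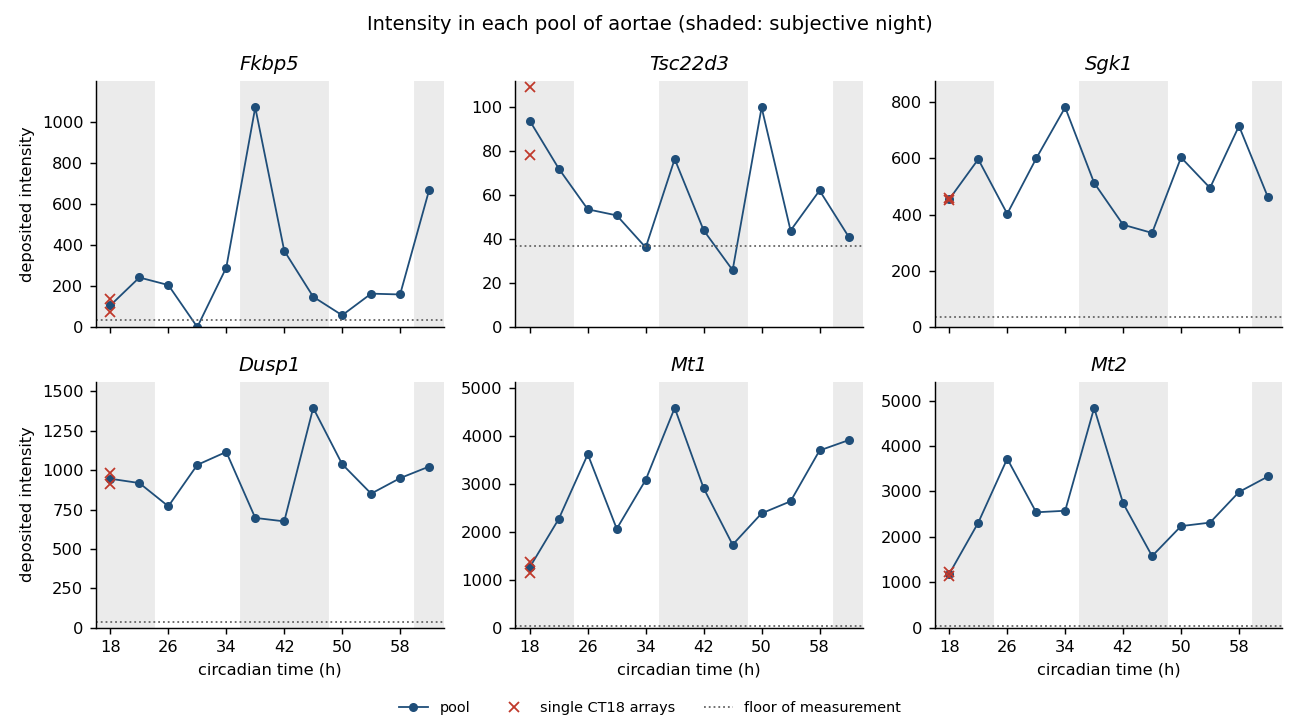
Deposited intensity of the 6 genes (y, linear scale) in each of 12 pools of aortae against circadian time (x, h), with the single CT18 arrays as crosses, the floor of 36.7 as a dotted line and subjective night shaded. Fkbp5 peaked at CT38 (1071) and CT62 (667), Mt1 and Mt2 were highest at CT38 and lowest at CT18, and Sgk1 was highest at CT34 and CT58.

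At circadian time 14 Fkbp5 averaged 869 ± 285 (SD, n = 2 pools). The other circadian times averaged 239 ± 188 at 18, 195 ± 66.4 at 22, 132 ± 104 at 2, 81.9 ± 115 at 6 and 225 ± 92.7 at 10 (SD, n = 2 each). The order of levels was thus 14, 18, 10, 22, 2 and 6, and among all neighbours after the first the difference was smaller than their spread. The mean log2 level at circadian time 14 exceeded that of the other pools by 2.53, with CT30 set at the floor. This difference ranked 3rd of 7453 probe sets, whose median was -0.04. Both pools at circadian time 14 were the highest of all for 125 probe sets (1.68%), and Fkbp5 and Mt1 were 2 of them. That circadian time was singled out after the values were seen. For 768 probe sets (10.3%) both pools of some 1 circadian time were the highest, and Fkbp5, Sgk1 and Mt1 were the 3 of 6 genes among them.

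The 24-h cosine fitted to Fkbp5 had an amplitude, the distance from mean to peak, of 1.28 ± 0.38 on the log2 scale (SE, 12 pools). Its peak lay at circadian time 15.0. Fitted to each day alone, the peak was at 14.8 on the second day and 15.2 on the first. In the limma F test, adjusted over the 7453 probe sets, p was 0.378, so the rhythm did not pass the threshold of 0.05. The curve accounted for 0.478 of the variance (R2; permutation p = 0.0540). The amplitude was above that of 99.8% of probe sets, and the SD across pools above 99.3%. With the 6 circadian times as a factor of no fixed shape, the limma adjusted p was 0.499. The difference of the second from the first day was -0.01 ± 0.56 on the log2 scale (SE; adjusted p = 0.996), and 2 of 6 circadian times were higher on the second day.

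By the same 24-h test 0 of the 6 genes passed, and 26 of the 7453 probe sets did (0.349%). At an unadjusted p under 0.05 there were 2 of 6, Fkbp5 and Sgk1, against 742 probe sets (9.96%). The test by circadian time as a factor called 0 of 6 genes and 2 probe sets in all (0.0268%). Fkbp5 and Mt1 were below 0.05 unadjusted in it, against 686 probe sets (9.2%). With 1 pool per time point, the test left 9 residual degrees of freedom for the cosine and 6 for the factor.

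**Figure D2:**
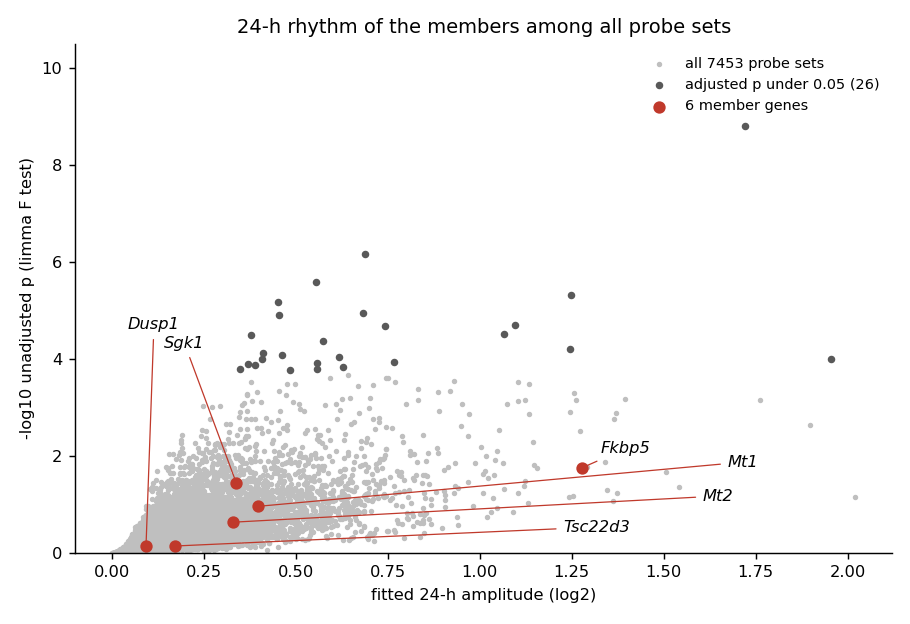
Fitted 24-h amplitude (x, log2) against -log10 of the unadjusted limma p (y) for 7453 probe sets, with the 26 past the adjusted threshold in dark grey and the 6 genes in red. Fkbp5 lies far to the right at 1.28, while Tsc22d3 and Dusp1 lie near the origin at 0.17 and 0.09.

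Tsc22d3 encodes GILZ, a leucine zipper protein that mediates anti-inflammatory actions of glucocorticoids. Its probe set was dim, with intensities of 93.7 (78.3 and 109), 72.0, 53.5, 50.8, 36.2 and 76.4 in the pools of the first day, CT18 to CT38. On the second day, CT42 to CT62, it measured 44.0, 25.9, 99.8, 43.9, 62.1 and 41.2. CT34 and CT46 were at the floor, and the high pools CT50, CT18 and CT38 fell at 3 different circadian times. The means by circadian time overlapped throughout, between 76.7 ± 32.7 at time 2 and 47.3 ± 4.87 at time 6 (SD, n = 2 pools). The amplitude of 0.17 ± 0.21 was smaller than its error (limma adjusted p = 0.917).

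Sgk1 encodes a serum- and glucocorticoid-regulated kinase that acts on ion channels and transporters. It measured 455 (451 and 458), 597, 403, 599, 781 and 513 in the pools CT18 to CT38, and 364, 335, 603, 495, 715 and 461 in the pools CT42 to CT62. CT34 was its highest pool, as for 391 probe sets (5.25%), and CT58 the next, both at circadian time 10, ahead of the circadian time at which Fkbp5 was highest. The lower of them, 715, was 1.19 times the next pool, 603 at CT50. Both pools of circadian time 10 were the highest for 151 probe sets (2.03%).

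The circadian time 10 pools of Sgk1 averaged 748 ± 46.7. In falling order the others averaged 547 ± 74.0 at time 6, 503 ± 142 at 2, 487 ± 36.2 at 14, 466 ± 185 at 22 and 409 ± 64.1 at 18 (SD, n = 2 pools each), and each of these differed from its neighbour by less than their spread. The cosine peaked at circadian time 8.53 with an amplitude of 0.34 ± 0.11 (SE), with a limma adjusted p of 0.466 and a permutation p of 0.0771. The peak was at 7.83 on the second day alone and at 9.78 on the first. Skeletal muscle marker intensity, summed over 12 genes, was 30764 at CT34 and 21357 at CT58, where Sgk1 was highest, but also 22938 at CT18, where Sgk1 was at 455. Over 12 pools log2 Sgk1 correlated with the log2 sum at r = 0.40 and rho = 0.301 (permutation p = 0.195 and 0.340, adjusted over 48 relations of members with marker lists 0.748 and 0.992), and at r = 0.245 without CT18 and CT34. With erythroid markers r was -0.589 and rho -0.364 (permutation p = 0.0443 and 0.247, adjusted 0.708 and 0.914), and r was -0.0401 without CT42 and CT46. Without CT18, CT34 and CT58 the amplitude of Sgk1 was 0.22 ± 0.14 (adjusted p = 0.836), a fall of more than 1.5 times, although the pools left out include both at circadian time 10.

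Dusp1 encodes a phosphatase that inactivates MAP kinases and is both an immediate early gene and a glucocorticoid target. It measured 946 (979 and 912), 918, 771, 1034, 1116 and 697 in the pools CT18 to CT38, and 675, 1396, 1038, 851, 950 and 1023 in the pools CT42 to CT62. CT46 was the highest pool, and the adjacent CT42 and CT38 were the lowest. The pool of the same circadian time as CT46 on the first day, CT22, was near the middle. The means by circadian time lay between 1157 ± 337 at time 22 and 810 ± 191 at time 18 (SD, n = 2 pools), with every neighbour in the order closer than its spread. Its cosine amplitude of 0.09 ± 0.11 was smaller than its error (limma adjusted p = 0.917).

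Mt1 measured 1262 (1378 and 1147), 2270, 3616, 2062, 3084 and 4584 in the pools CT18 to CT38, and 2909, 1730, 2384, 2636, 3696 and 3911 in the pools CT42 to CT62. It was highest at CT38 and CT62, but CT58 with 3696 was close behind CT62, at a ratio of 1.06. Mt2 measured 1185 (1229 and 1142), 2312, 3721, 2541, 2575 and 4840 in CT18 to CT38, and 2740, 1576, 2237, 2314, 2988 and 3329 in CT42 to CT62. It was also highest at CT38, but there CT26 came ahead of CT62. Both metallothioneins were lowest at CT18, on both arrays of that time point, and next lowest at CT46. The highest pool exceeded the lowest 3.63-fold for Mt1 and 4.08-fold for Mt2.

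The pools of circadian time 18 were unlike each other: Mt1 had 2909 at CT42 against 1262 at CT18, and Mt2 had 2740 against 1185. By circadian time Mt1 averaged 4247 ± 476 at 14, 3390 ± 433 at 10, 3000 ± 871 at 2, 2349 ± 406 at 6, 2085 ± 1164 at 18 and 2000 ± 382 at 22 (SD, n = 2 pools each). The means at 14 and 10 were separated by more than either SD, and later neighbours in this order were not. Mt2 averaged 4085 ± 1068 at 14, 2979 ± 1050 at 2, 2782 ± 292 at 10, 2427 ± 160 at 6, 1963 ± 1099 at 18 and 1944 ± 521 at 22. For Mt2 the neighbours at 14 and 2 and at 10 and 6 were separated by slightly more than the larger of their SDs, and the others by less.

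The 24-h amplitude was 0.40 ± 0.17 for Mt1, with a peak at 10.7 (limma adjusted p = 0.610), and 0.33 ± 0.18 for Mt2, with a peak at 10.2 (adjusted p = 0.694). Adding a 12-h component gave limma adjusted p of 0.874 for Mt1 and 0.888 for Mt2. By this test 0 of 6 genes and 0 of 7453 probe sets (0%) passed, and 2 of 6 genes were below 0.05 unadjusted, against 417 probe sets (5.6%). Both had a secondary high at circadian time 2 on the first day, CT26. On the second day the pool of that time, CT50, was below the median pool for both.

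The metallothioneins moved together across pools. Pearson's r of their log2 levels was 0.950 and Spearman's rho 0.923 (n = 12 pools; permutation p = 1e-05, the smallest that 100000 permutations can give, and 8e-05; adjusted over 15 pairs 0.00015 and 0.0012). Without CT18 and CT38, the pools farthest from the median of Mt1, r was 0.888. The difference of Mt1 minus Mt2 had an SD of 0.17 on the log2 scale, between -0.30 at CT30 and 0.31 at CT58, while each gene alone had an SD of 0.54 for Mt1 and 0.53 for Mt2. Both probe sets carry the plain suffix that marks no known cross-hybridisation, but sharing of signal between such similar transcripts was not tested.

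**Figure D3:**
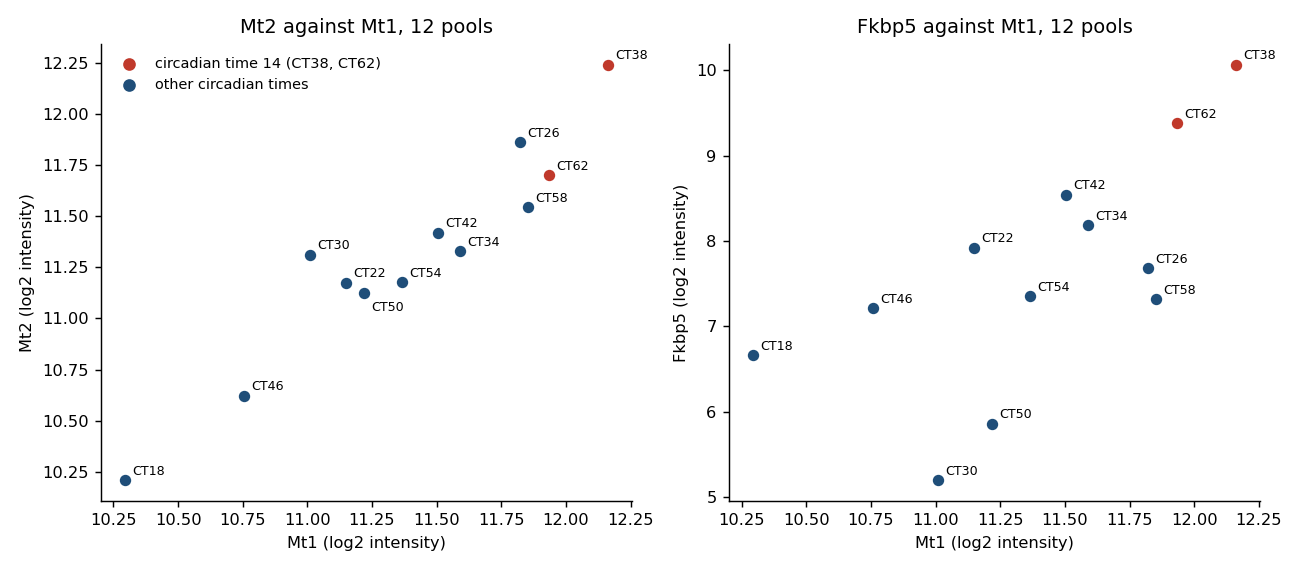
Log2 intensity of Mt2 (left) and of Fkbp5 (right) against Mt1 (x) in 12 pools, with the circadian time 14 pools in red. The Mt2 points follow a line with r of 0.950, while the Fkbp5 points scatter more widely with r of 0.670.

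Of the other 14 pairs of members, none passed after adjustment. Fkbp5 and Mt1 had r = 0.670 (permutation p = 0.0172, adjusted 0.129) and rho = 0.734 (adjusted 0.0633), with r = 0.567 without CT30 and CT38. Fkbp5 and Mt2 had r = 0.584 (permutation p adjusted 0.226) and rho = 0.678 (adjusted 0.0905). Over all 12 pools Fkbp5, Sgk1, Dusp1 and Tsc22d3 had an absolute r under 0.5 with one another in every pair. Without the 2 pools farthest from the median of 1 gene, r was -0.681 for Fkbp5 and Tsc22d3 (-0.234 over all pools), 0.612 for Sgk1 and Dusp1 (0.153) and -0.531 for Tsc22d3 and Dusp1 (-0.254), so these values depended on which pools were used.

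The genes most like each member over the 12 pools were taken from 5654 other genes by Pearson's r, as a description. For Fkbp5 these were Serinc3 (0.915), Etfbkmt (0.881) and Wdr92 (0.878). For Sgk1 they were Tnfsf4 (0.926), Snrk (0.885) and Zpr1 (0.812), and for Dusp1 Kif1b (0.829), Spryd4 (0.827) and Fzd7 (0.817). For Tsc22d3 they were Itgax (0.770), Nedd1 (0.769) and 2510039O18Rik (0.765). For Mt1 they were Mt2 (0.950), Psma6 (0.926) and Tbc1d20 (0.896), and for Mt2 they were Mt1 (0.950), Psma6 (0.906) and Rnase4 (0.892). No member but the metallothioneins was among the nearest of another.

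Levels on the second day, set against the first, did not pass for any of the 6 genes, nor for any of the 7453 probe sets (limma, 0%; 562 or 7.54% at an unadjusted p under 0.05, none of them a member). Mt1 averaged 2878 ± 819 on the second day and 2813 ± 1193 on the first, and Mt2 2531 ± 622 and 2862 ± 1261 (SD, n = 6 pools each). Sgk1 averaged 495 ± 144 on the second day and 558 ± 134 on the first, and was lower on the second day at 5 of 6 circadian times. Its difference was -0.19 ± 0.16 on the log2 scale (SE; adjusted p = 0.799). A difference in rhythm between the days passed for 0 of 6 genes, with limma adjusted p between 0.758 and 0.986, and for 0 probe sets (520 or 6.98% unadjusted, none of them a member).

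A further list held partners of the receptor and the enzyme gene Hsd11b1, none of them a member. Of its 11 genes measured, 1 passed the 24-h test, against 0.349% of all probe sets. An unadjusted p under 0.05 was found for 5 of the 11, against 9.96% of all probe sets. The gene that passed was Hspa8, the constitutive HSC70 chaperone, which peaked at circadian time 17.3 with an amplitude of 0.69 ± 0.07 (SE) (limma adjusted p = 0.00255). The median amplitude of the 11 was 0.30, against 0.18 for all probe sets kept. This list was chosen with earlier results of these data known, so its shares are a description. The probe set of the receptor itself, Nr3c1, measured 26.4 to 58.1 with 4 pools at the floor, and it did not pass the filter. Fkbp4, which encodes FKBP52, the FKBP51 paralogue that favours receptor activity, peaked at 18.1 with an amplitude of 0.41 ± 0.10 (adjusted p = 0.202), by a probe set marked for cross-hybridisation. Of the 8 FK506-binding paralogues 0 passed, and their median amplitude was 0.13. Fkbp1a, which encodes FKBP12, had the next smallest p after Fkbp4 (amplitude 0.17 ± 0.05, adjusted p = 0.404).

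Of 36 other glucocorticoid-responsive genes measured, 0 passed the 24-h test by limma, and 9 (25%) had an unadjusted p under 0.05, against 9.96% of all probe sets. Their median amplitude was 0.32, against 0.18 for all probe sets kept. The list was chosen with earlier results of these data known, so these shares are a description. Those with the smallest p were Cdkn1c, a cell cycle inhibitor, with a fitted peak at 8.6 and an amplitude of 0.37 ± 0.07 (adjusted p = 0.0846), and Bcl6, a transcriptional repressor, with 0.51 ± 0.10 and a peak at 19.4 (adjusted p = 0.110). Both pools of circadian time 14 were the highest for Glul, Lpin1 and Sult1a1, 3 of the 36 (8.33%), against 1.68% of all probe sets. Peaks of the fitted curves thus lay at different times within the list.

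At CT38, where Fkbp5, Mt1 and Mt2 were highest, 12 of the 36 genes (33.3%) also had their highest pool, against 480 of 7453 probe sets (6.44%). They were Bcl2l1, Cdkn1a, Cebpd, Ddit4, Errfi1, Gadd45g, Glul, Mertk, Nfkbia, Sesn1, Sult1a1 and Zbtb16, named after their values were seen. In all, 28 of the 36 were above the mean of the other pools at CT38, with a median difference of 0.44 on the log2 scale, against 0.006 for all probe sets kept. At CT62, the same circadian time on the second day, 3 of the 36 had their highest pool, against 521 probe sets (6.99%). There 17 were above the mean of the other pools and the median difference was -0.01. The excess at CT38 was thus seen in 1 of the 2 pools of circadian time 14, and with no replicate pool it was not tested. CT38 was itself singled out after the values were seen, and the list was chosen with earlier results of these data known. Markers of some other tissues were also high at CT38. Of 7 atrial markers 6 were above the mean of the other pools there, with a median difference of 0.88 on the log2 scale, and of 10 thymocyte and leukocyte markers 9 were, with a median difference of 0.84. At CT62 the median differences were -0.003 for the atrial and 0.65 for the thymocyte and leukocyte markers. Skeletal muscle markers went the other way at CT38, with 1 of 11 above that mean and a median difference of -0.48. Adipocyte markers did too, with 2 of 7 above it and a median difference of -0.14. The part of these tissues in the excess was not tested.

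Single genes of this kind showed it in different degrees. Glul, glutamine synthetase, measured 4231 at CT38, against 1915 to 3491 in the other pools, with 3491 at CT62. Ddit4, an inhibitor of mTOR signalling, measured 1770 at CT38. Its other pools had a median of 173 and ran from -90.8 at CT46, below the floor, to 539 at CT22. Sesn1, a stress-responsive sestrin, measured 591 at CT38, against 250 to 370 elsewhere. Zbtb16, a transcription factor strongly induced by glucocorticoids, measured 1775 at CT38, but CT22 reached 1466. CT22 was also the next highest pool for Bcl2l1, Cebpd, Ddit4, Nfkbia and Sesn1. Among the 12 genes the ratio of CT38 to the next pool ran from 1.03 for Mertk to 3.29 for Ddit4.

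**Figure D4:**
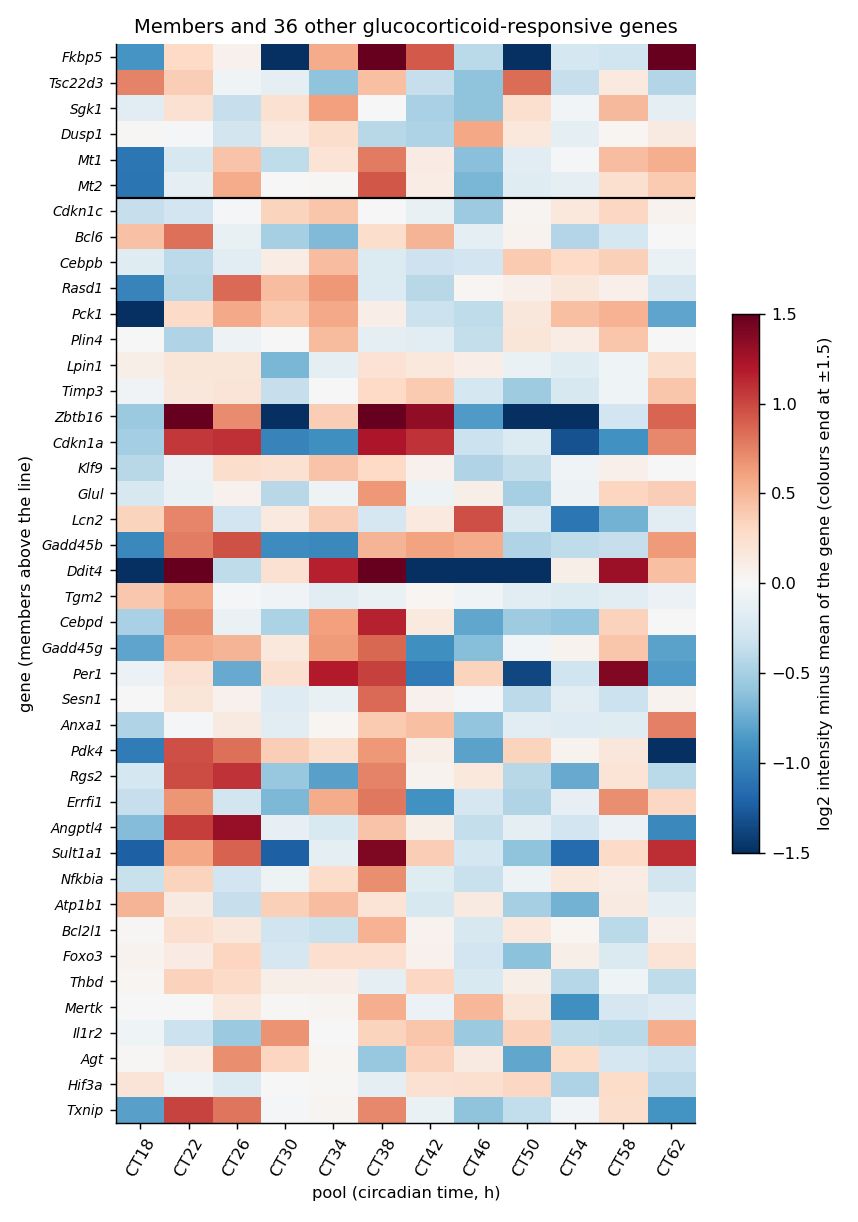
Log2 intensity minus the gene's mean over the 12 pools (colour, ends at ±1.5) for the 6 members, above the line, and 36 other glucocorticoid-responsive genes in columns ordered by circadian time. CT38 is the highest pool for 12 of the 36 genes, and Fkbp5 is high at CT38 and CT62.

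Other gene families of the members passed the test in no case: 0 of 22 genes of zinc, copper and iron handling, 0 of 2 TSC22 genes, 0 of 2 SGK and AKT kinases, 0 of 6 dual specificity phosphatases, 0 of 16 immediate early genes and 0 of 8 SGK1 targets and ion transporters (limma, 24-h test). Unadjusted p was under 0.05 for 1, 1, 2, 2, 5 and 1 of these, where 9.96% of all probe sets had such a p. The lists of 2 genes are too short to set against that share. Ceruloplasmin (Cp), the copper carrier, had the smallest p of the metal list, with an amplitude of 0.38 ± 0.12 (adjusted p = 0.455), and Mt4 the next, with 1.24 ± 0.48 (adjusted p = 0.553). The other metallothioneins did not pass, with Mt3 between 263 at CT62 and 775 at CT42 and Mt4 between -104 at CT46 and 1564 at CT30, and neither had its highest pool at CT38.

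The paralogues Tsc22d1 (0.31 ± 0.07, adjusted p = 0.163), Akt1 (0.32 ± 0.09, adjusted p = 0.329) and Akt2 (0.42 ± 0.13, adjusted p = 0.388) had fitted peaks at 14.7, 7.46 and 6.46. Tsc22d4, the other TSC22 gene, had an amplitude of 0.06 ± 0.10 (adjusted p = 0.951). Among the phosphatases Dusp2 (0.46 ± 0.14, adjusted p = 0.388) and Dusp11 (0.32 ± 0.11, adjusted p = 0.466) had the smallest p. Nr4a1, an orphan nuclear receptor and immediate early gene, had a fitted peak at 4.9 and an amplitude of 1.90 ± 0.42 (adjusted p = 0.166), and Klf6, another immediate early gene, had 0.26 ± 0.07 (adjusted p = 0.293). Slc12a2, a sodium, potassium and chloride cotransporter, had 0.35 ± 0.07 and a peak at 11.3 (adjusted p = 0.0975), and Wnk1, a kinase upstream of such cotransporters, had 0.12 ± 0.05 (adjusted p = 0.606). Of 9 core clock genes 3 passed, with a median amplitude of 1.25 for the 9. They were the repressor Nr1d2 (1.72 ± 0.10, peak at 9.30, limma adjusted p = 1.19e-05), Per2 (1.25 ± 0.14, peak at 13.5, adjusted p = 0.00897) and Dbp (1.95 ± 0.30, peak at 8.46, adjusted p = 0.0410). The lowest pools were below the floor for Nr1d2 (21.4 at CT46), Per2 (-0.42 at CT50), Dbp (-104 at CT46) and Nr4a1 (-55.7 at CT42). The amplitudes of these genes thus depend on where the floor was set.

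Fkbp5 was accompanied by cardiac atrial markers in part. Their intensity summed over 8 genes was 15710 at CT38 and 10246 at CT62, against 7721 to 16624 in the other pools. The highest sum, at CT42, stood beside an Fkbp5 intensity of 372. CT62 and CT58 had similar sums, 10246 and 10402, with Fkbp5 at 667 in the CT62 pool and 159 in the CT58 pool. The marker Sln was at the floor in 7 pools. Over 12 pools log2 Fkbp5 correlated with the log2 sum at r = 0.721 and rho = 0.713 (permutation p = 0.00900 and 0.0119, adjusted over 48 relations of members with marker lists 0.216 and 0.491). Without CT38 and CT42, which stood apart by their sums, r was 0.654.

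**Figure D5:**
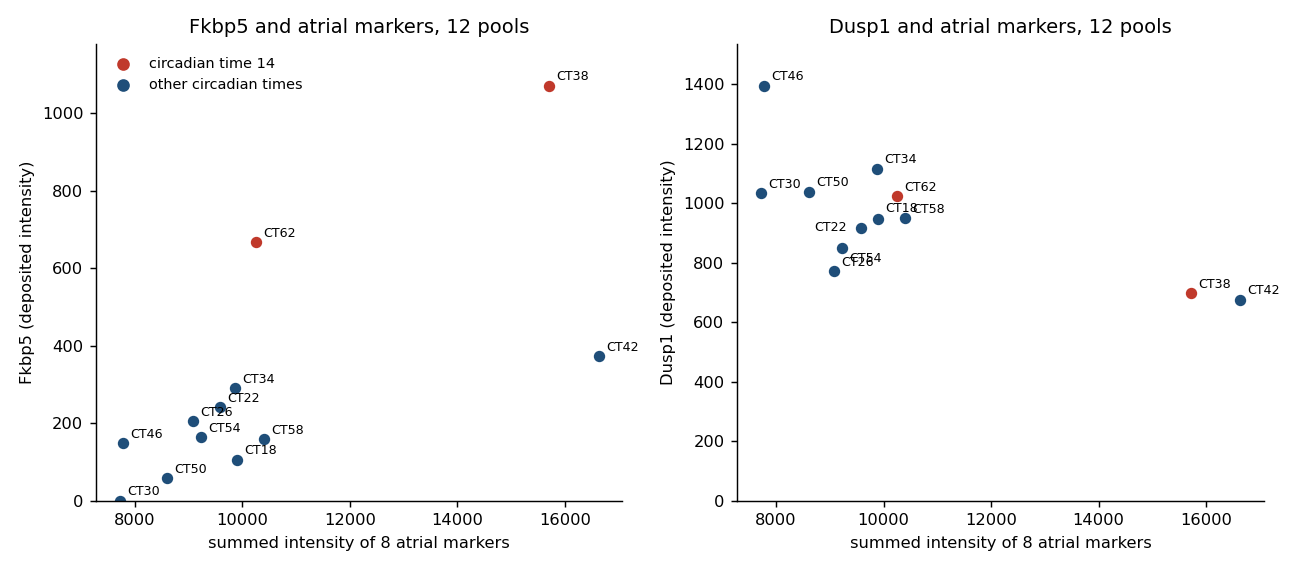
Intensity of Fkbp5 (left) and Dusp1 (right) against the summed intensity of 8 atrial markers (x) in 12 pools, with the circadian time 14 pools in red. CT38 and CT42 stand apart on the x axis at 15710 and 16624, and Fkbp5 was 1071 in the CT38 pool and 372 in the CT42 pool.

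Dusp1 ran the other way, with r = -0.765 (permutation p = 0.00341, adjusted 0.164) and rho = -0.566 (adjusted 0.491). Without CT38 and CT42, which had the highest sums, r was -0.422 over 10 pools, and the change in r was not tested. With the mean of the atrial markers as a covariate the amplitude of Fkbp5 was 0.77 ± 0.57 (limma adjusted p = 0.802), and without CT38 and CT42 it was 0.96 ± 0.44 (adjusted p = 0.776). With skeletal muscle, thymocyte and atrial marker means together as covariates it was 1.502 ± 0.93 (adjusted p = 0.749).

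Mt1 had an r of 0.495 (permutation p = 0.102, adjusted 0.710) and a rho of 0.587 (adjusted 0.491) with the atrial sum, and an r of 0.431 without CT38 and CT42. Mt2 had an r of 0.474 (permutation p = 0.120, adjusted 0.710) and a rho of 0.490 (adjusted 0.653), and an r of 0.224 without those pools. With the atrial covariate the fitted peak lay at 6.96 for Mt1 and 5.93 for Mt2, against 10.7 and 10.2 without it, and the amplitudes were 0.46 ± 0.18 and 0.51 ± 0.20 (limma adjusted p = 0.637 each). With the marker means of all 3 tissues the peaks lay at 10.8 and 9.72. Thymocyte and leukocyte markers summed to 5444 at CT38 and 4395 at CT62, against 1563 to 5971 in the other pools, and had an r of 0.04 with Fkbp5. The part of other tissues in the levels of Fkbp5, Sgk1, Mt1 and Mt2 was not tested beyond these values.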

How the data were processed

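The authors deposited linear intensities, 1 for each probe set on each array. Their software, scaling and genome build were not given in the sources used here. The trimmed mean of 200.2 on every array showed that the deposited intensities were already scaled, so they were not normalised again. From the 12488 probe sets 66 controls were removed. Intensities below 36.7, the 20th percentile of positive values, were set to that floor before log2, and the CT18 arrays were averaged as 1 pool, since the labels do not say whether they share one. Probe sets with a mean at or above the 40th percentile (log2 of 5.60) were kept. Values at the floor are bounds.

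The 24-h, 12-h, circadian time, day and rhythm-by-day models used limma 3.58.1 (R 4.3.3; eBayes with trend), adjusted by Benjamini-Hochberg over 7453 probe sets, with a threshold of 0.05, and checked on simulated data. Permutation tests, two-sided for correlations, used 100000 permutations. Genes come from the platform annotation, and promoter sequences from RefSeq tables. Named genes are the members, the 3 nearest genes by r, and from each list up to 4 past the threshold or the 2 with the smallest p. Other genes named at CT38 or circadian time 14, and Mt3, Mt4, Nr3c1 and the markers given by value, were chosen after their values were seen. The members and lists were chosen with earlier results of these data known. Alternatives changed the floor, filter, scaling, variance model, covariates and pools used.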

Additional observations from a re-analysis of the deposited data

How the results depend on the processing

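No member passed the 24-h test under any alternative tried. On the log2 scale the amplitude of Fkbp5 lay between 0.77 and 1.61 (limma adjusted p 0.136 to 0.802), that of Sgk1 between 0.22 and 0.45 (0.223 to 0.836), of Mt1 between 0.34 and 0.51, of Mt2 between 0.25 and 0.51, of Tsc22d3 between 0.0685 and 0.726 and of Dusp1 between 0.0316 and 0.248. The correlation of Mt1 with Mt2 passed in both of its alternatives. The number of probe sets past the 24-h threshold, 26, was 7 with median-centred arrays, 4 without the filter, 4 without the variance trend, 4 with ordinary F tests, 10 with 3 marker covariates, 12 on the linear scale and 4 with the atrial covariate. Leaving out pools chosen after seeing the data gave 4 without CT18, CT34 and CT58, and 8 without CT38 and CT42. Leaving out 1 pool at a time gave 8 (without CT54) to 40 (without CT30), with 10 without CT18, 10 without CT34, 9 without CT42, 17 without CT46, 14 without CT58 and 13 without CT62, and 2 day differences passed without CT42, against 0 to 2 overall. The peak of Dusp1 moved by more than 6 h with 3 marker covariates (amplitude 0.0447), without CT38 and CT42 (0.0936) and with the atrial covariate (0.25). Without the 2 pools farthest from the median, the correlation was -0.0358 for Sgk1 with Mt1, -0.0435 for Sgk1 with Mt2, 0.356 for Tsc22d3 with Mt1 and 0.542 for Tsc22d3 with Mt2, all turned in sign. The day difference of Fkbp5 was 0.18 with a lower floor, 0.0667 with an offset, 0.0346 with median-centred arrays and 0.25 without CT38 and CT42, and -0.47 to 0.32 with 1 pool left out. That of Mt1 was -0.22 without CT18, CT34 and CT58, and -0.13 to 0.29 with 1 pool left out. With 1 pool left out it was -0.34 to 0.0876 for Mt2, -0.0298 to 0.21 for Dusp1 and -0.29 to -0.0769 for Sgk1. The cause of these changes was not tested. No paired analysis was possible because the time points share fewer than 2 replicate numbers, when pairs are formed by those numbers. Pools 24 h apart can be paired by circadian time, and with that block, added after seeing the data, 0 day differences passed (601 unadjusted, 6 pairs), with limma adjusted p of 0.761 to 0.995 for the members. Among the members, values near the floor limit what can be said of Tsc22d3, and of Fkbp5 at CT30.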
